A study of Mus musculus with 36 samples.

Results

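Wild-type conventional CD4 T cells (Tconv) of the HP1γ mouse line that had been transferred together with regulatory T cells (Treg) were compared with naive CD4 T cells of the same line by ATAC-seq, an assay in which Tn5 transposase cuts accessible DNA. The comparison took the 3 libraries of wild-type Treg-exposed Tconv and the 3 libraries of wild-type naive cells, 6 of the 36 libraries of the series, over all peaks of the shared table, of which 71508 of 71509 had enough reads to be tested. The comparison asks how far Tconv transferred with Treg left the naive state. As a limit, the study describes the dose of Treg given with this line as one that held back wild-type Tconv poorly. The series profiled wild-type and knockout cells of an HP1α and an HP1γ line in the naive state, as Tconv and as Tconv with Treg, and the 3 libraries of HP1γ wild-type Tconv transferred without Treg are set beside the comparison here. All cells of these groups were wild-type: per the study's methods, the HP1γ controls were littermates with a floxed Hp1g gene and no Cd4-cre, on a mixed 129/Sv and C57BL/6 background. Naive cells were CD44-/low CD4+ T cells of naive phenotype taken from the spleen by negative magnetic selection. Tconv were taken from the spleen 3 weeks after naive cells had been injected, alone or with ex vivo expanded wild-type Treg, into lethally irradiated hosts, either CD45.1+ B6 or C57BL/6 J mice, that received bone marrow of both C57BL/6 J and semi-allogeneic B6D2F1 mice. Tconv were sorted as donor CD4+ cells that carried the T cell receptor chain Vβ6 and lacked Thy1.1, the marker of the injected Treg, whereas naive cells were not sorted for Vβ6. Transfer, host, sort and Vβ6 gate therefore all differ between Treg-exposed Tconv and naive cells and cannot be told apart in their comparison, whereas Tconv with and without Treg shared them. Wild-type littermates from the HP1α line, whose knockouts carry an Hp1a allele deleted with CMV-cre, went through the same steps and gave 3 naive, 3 Tconv and 2 Treg-exposed libraries that the study kept. No source says whether a replicate was a mouse or a pool of mice, so p-values measure the spread between these libraries.

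A naive CD4 T cell keeps open the regulatory elements of genes for quiescence, survival and recirculation through lymph nodes, with factors such as TCF1, LEF1, BACH2 and FOXP1. After antigen, AP-1 proteins with BATF and IRF4 and then lineage factors such as T-bet open elements at cytokine, chemokine receptor and cytotoxic genes, while naive elements close. Treg restrain the expansion and cytokine production of such cells. In bulk ATAC-seq, an element open in more cells and an element more open in each cell cannot be told apart.

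The sequences of 7 peaks that the results turn on are shown first, as 300 bases at the centre of each peak, or the whole peak where it was shorter, on the + strand of GRCm39. The first 5 gained accessibility in Treg-exposed Tconv and lie at genes of the effector response: Il10 (chr1:130921401-130921700, intergenic), Ifng (chr10:118271326-118271625, intergenic), Ccl5 (chr11:83420811-83421110, in the peak at the start of Ccl5), Il17a (chr1:20824746-20825045, intergenic) and Id2 (chr12:25402891-25403150, in an intron of the predicted gene Gm36723, with Id2 the nearest coding gene at 255738 bp). The last 2 lost accessibility and lie in introns of a naive-state gene and of the gene with the lowest p among the losses: Lef1 (chr3:130984496-130984795) and Bcl9 (chr3:97201806-97202105). Capitals mark a match to 1 of the searched motifs on either strand: AP-1 (TGANTCA) in Il10, Il17a and Id2, T-box (AGGTGTGA, here on the minus strand) in Ifng, RUNX (TGTGGTT) in Ccl5, Il17a, Id2 and Bcl9, NR4A (AAAGGTCA) in Ccl5, and TCF/LEF (CTTTGAT) and KLF (GGGNGTGG) in Lef1. A match is a run of letters and not a measured binding site.
Il10: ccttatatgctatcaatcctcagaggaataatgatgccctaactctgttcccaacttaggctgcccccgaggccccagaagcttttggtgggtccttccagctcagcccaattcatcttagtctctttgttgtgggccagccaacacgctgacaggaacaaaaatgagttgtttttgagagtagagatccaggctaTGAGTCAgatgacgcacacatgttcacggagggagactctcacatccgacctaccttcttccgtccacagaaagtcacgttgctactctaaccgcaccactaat
Ifng: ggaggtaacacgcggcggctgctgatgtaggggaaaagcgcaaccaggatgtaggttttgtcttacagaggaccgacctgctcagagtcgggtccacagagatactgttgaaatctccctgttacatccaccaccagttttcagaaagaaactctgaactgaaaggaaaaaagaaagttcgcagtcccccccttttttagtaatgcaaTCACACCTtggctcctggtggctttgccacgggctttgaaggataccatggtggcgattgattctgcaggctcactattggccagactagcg
Ccl5: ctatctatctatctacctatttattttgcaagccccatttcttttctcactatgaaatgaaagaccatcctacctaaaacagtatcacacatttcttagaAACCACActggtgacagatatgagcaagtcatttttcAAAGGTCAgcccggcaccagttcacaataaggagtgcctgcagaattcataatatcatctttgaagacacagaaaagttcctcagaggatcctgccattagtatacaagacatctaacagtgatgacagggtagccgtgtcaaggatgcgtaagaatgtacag
Il17a: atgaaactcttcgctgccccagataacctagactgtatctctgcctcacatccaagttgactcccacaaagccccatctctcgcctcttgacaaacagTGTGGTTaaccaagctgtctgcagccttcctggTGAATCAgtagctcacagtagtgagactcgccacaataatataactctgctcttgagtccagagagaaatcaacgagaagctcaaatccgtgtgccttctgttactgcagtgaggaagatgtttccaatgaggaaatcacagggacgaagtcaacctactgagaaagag
Id2: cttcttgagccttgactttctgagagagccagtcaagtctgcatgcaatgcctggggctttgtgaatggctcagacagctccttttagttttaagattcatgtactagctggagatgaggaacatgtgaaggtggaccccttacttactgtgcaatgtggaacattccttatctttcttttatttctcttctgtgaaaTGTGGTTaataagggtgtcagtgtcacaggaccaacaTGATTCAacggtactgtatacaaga
Lef1: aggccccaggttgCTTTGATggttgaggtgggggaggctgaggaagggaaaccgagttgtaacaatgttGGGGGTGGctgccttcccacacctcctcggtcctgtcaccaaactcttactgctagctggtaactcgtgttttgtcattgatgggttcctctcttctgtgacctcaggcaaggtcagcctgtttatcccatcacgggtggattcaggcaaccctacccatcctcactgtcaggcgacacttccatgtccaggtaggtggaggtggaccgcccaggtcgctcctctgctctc
Bcl9: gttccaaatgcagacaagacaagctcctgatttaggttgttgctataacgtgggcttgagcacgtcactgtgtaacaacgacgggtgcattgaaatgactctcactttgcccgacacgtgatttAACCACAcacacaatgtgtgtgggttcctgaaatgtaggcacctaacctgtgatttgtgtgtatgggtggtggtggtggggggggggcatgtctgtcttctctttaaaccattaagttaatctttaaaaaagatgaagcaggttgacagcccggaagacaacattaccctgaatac
Accessibility at each of these peaks is given with its gene below, and the share of all windows with each motif after the gene lists.

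The Treg-exposed libraries held 51.7, 41.4 and 19.4 M reads in peaks (1 M is 1000000), fewer than the 70.5 to 90.3 M of the naive libraries and the 54.3 to 69.2 M of Tconv without Treg, and the smallest was Treg-exposed replicate 3. Levels are given as CPM, counts per 1 M reads in peaks after scaling. Correlations of log2 CPM between replicates were 0.957 to 0.976 among Treg-exposed and 0.989 to 0.992 among naive libraries, and no pair of replicates agreed within sampling noise (chi-square per degree of freedom 3.46 to 20.8). Between 64.0% and 66.6% of reads lay in peaks over a transcription start site (TSS) in every one of these 9 libraries. The 19 peaks nearest the T cell markers summed to 505 to 653 CPM in Treg-exposed and 511 to 540 CPM in naive libraries, so both groups carried T cell chromatin. Markers of other cells moved with the comparison. The 4 peaks nearest the NK markers Klrb1c and Klra8 summed to 11.1 to 16.1 against 1.03 to 1.62 CPM, all 4 called higher, and the defining marker Ncr1 had no peak assigned to it. The 8 peaks of the dendritic list summed to 97.4 to 103 against 51.5 to 52.5 CPM and were split by gene, with all 3 peaks nearest Zbtb46 called higher and 4 of the 5 peaks given to Flt3, by nearest coding gene, called lower, while Siglech had none assigned to it. The 3 CD8 peaks summed to 5.28 to 7.37 in Treg-exposed against 34.2 to 39.3 CPM in naive libraries, all 3 called lower. B cell markers (10 peaks, 23.7 to 32.1 against 36.2 to 40.2 CPM, 1 called higher and 3 lower), myeloid markers (12 peaks, 57.8 to 61.3 against 68.7 to 71.7 CPM, 2 higher and 5 lower) and erythroid markers (2 peaks, 7.45 to 11.7 against 12.3 to 12.6 CPM, 1 lower) were lower in sum, while Cd79a, Ms4a1, Lyz2, Csf1r, Csf3r and Klf1 had no peak assigned to them. The part of other cells in the results was not tested.

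Treg-exposed Tconv lay far from naive cells. A peak was called at a Benjamini-Hochberg adjusted p under 0.05 in edgeR's quasi-likelihood test and an absolute log2 fold change over 1, and 31908 of 71508 peaks (44.6%) passed, 18740 higher (26.2%) and 13168 lower (18.4%) in Treg-exposed Tconv. The gains were larger than the losses: the median called gain was 6.65-fold (log2 2.73, and 2.72 with peaks near zero in naive cells held at their lower bound) and the median called loss was 3.12-fold (log2 -1.64). The 3 Treg-exposed libraries did not overlap the 3 naive libraries at 49433 peaks (69.1%), which include 98.9% of the gains and 97.1% of the losses. Gains past a log2 fold change of 2 numbered 12910 (18.1%) and losses past -2 numbered 4010 (5.61%). At 800 peaks no naive library had more than 3 reads, and 779 of them were called higher, whereas 4 peaks were as empty in the Treg-exposed libraries. Peaks were called per sample and then merged, so a peak this empty in naive cells was taken up through other libraries. The direction of these calls was largely set by that selection and is no separate result.

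Tconv transferred without Treg gave a similar number of calls against the same naive libraries, with more of them losses. There, 33226 peaks were called (46.5%), 17513 higher (24.5%) and 15713 lower (22%), and the medians were 6.01-fold for gains and 4.02-fold for losses. Gains past a log2 fold change of 2 numbered 11435 (16%) and losses past -2 numbered 7905 (11.1%). Higher calls made up 58.7% of all calls with Treg and 52.7% without, but 52.9% and 53.3% with trended offsets, so the order of these shares depends on the scaling. These comparisons share the naive libraries, so the difference between them was read from Treg-exposed Tconv against Tconv directly.

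To place each library between the naive and the Tconv state without using the HP1γ libraries to choose peaks, an axis was drawn from wild-type cells of the HP1α line, which share no library with the HP1γ line. In HP1α wild-type Tconv against naive cells 30372 peaks were called (42.5%), and its 17824 gains (24.9%) and 12548 losses (17.5%) are called opened and closed peaks here. Over the opened peaks the mean log2 CPM was -1.02, -1.36 and -1.36 in the naive libraries, 1.21, 1.26 and 1.27 in Tconv, and 1.26, 1.41 and 1.30 in Treg-exposed Tconv. The Treg-exposed libraries stood at the level of Tconv at opened peaks, at 101%, 107% and 102% of that from the naive to the Tconv mean. Over the closed peaks the mean log2 CPM was 2.46, 2.43 and 2.43 in naive cells, 0.20, 0.11 and 0.21 in Tconv, and 0.54, 0.67 and 1.12 in Treg-exposed Tconv. All 3 Treg-exposed libraries lay between all naive and all Tconv libraries at closed peaks, having covered 84.0%, 78.4% and 58.5% of the distance. With the 1000 peaks of smallest p in each direction in place of all, the shares at opened and closed peaks were less far apart, 92.5%, 99.9% and 85.3% against 81.8%, 86.4% and 76.3%. With opened minus closed taken as the position, the Treg-exposed libraries stood at 92.7%, 93.2% and 81.4% of the distance, with a mean on the log2 CPM scale of 0.55 ± 0.32 (SD, n = 3) against 1.07 ± 0.07 in Tconv and -3.69 ± 0.18 in naive cells.

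**Figure D1:**
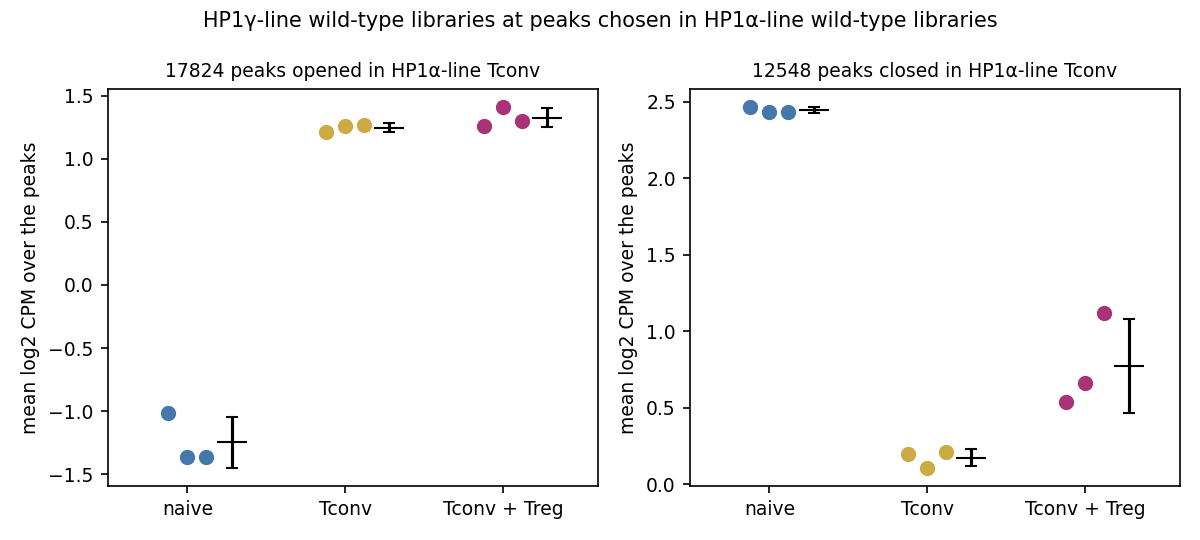
Mean log2 CPM of each HP1γ wild-type library over 17824 opened peaks and 12548 closed peaks, which were chosen in the HP1α line; each point is a library, horizontal bars are group means and vertical bars the SD. Treg-exposed libraries sit at the level of Tconv over opened peaks (1.26 to 1.41) and between Tconv and naive libraries over closed peaks (0.54 to 1.12).

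The shares at closed peaks fell in the order of depth among the Treg-exposed libraries, with the shallowest library nearest the naive cells. After every library was thinned to 19.4 M reads, a step chosen after the data were seen, the shares at closed peaks were 83.0%, 76.7% and 55.3%, and without Treg-exposed replicate 3 their mean rose from 73.6% to 81.2%. Treg-exposed replicate 3 was the highest of the 3 Treg-exposed libraries at 66.6% of closed peaks, whereas at opened peaks it was the highest at 34.0% and the lowest at 41.7%. Whether this library differs from the others by its cells or by its preparation was not tested.

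The same contrast was read peak by peak. Of the closed peaks, 86.1% were called lower in Treg-exposed Tconv against naive cells (median log2 fold change -1.65) and 93.3% in Tconv against naive cells (-2.21). Of the opened peaks, 90.4% were called higher in Treg-exposed Tconv (median 2.69) and 86.2% in Tconv (2.50). The contrast of Treg-exposed Tconv against Tconv compares no naive library, although the fit that gave it holds them. There, the median log2 fold change over closed peaks was 0.55, with 86.4% of peaks above 0, while over opened peaks it was 0.00 with 49.8% above 0 and over all peaks 0.03. At 3787 closed peaks (30.2%) every Treg-exposed library lay between every Tconv and every naive library, and at 107 (0.853%) every Treg-exposed library lay beyond every Tconv library. Opened peaks gave 1283 (7.2%) between and 1868 (10.5%) beyond. Over all peaks, these shares were 6.49% between and 0.998% beyond in the closed direction and 2.89% and 3.22% in the opened direction.

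Few peaks passed the test of Treg-exposed Tconv against Tconv individually. The direct comparison called 98 peaks (0.137%), 48 higher (0.0671%) and 50 lower (0.0699%), while 14522 had an unadjusted p under 0.05 and the median standard error of a log2 fold change was 0.26. A block on the replicate number treats libraries of the same number as paired, which no source states. With it, 3641 were called in a fit of these groups alone (5.13%, with 3100 or 4.37% higher and 541 or 0.763% lower). The block in the fit of all groups gave 521 (0.729%, with 223 or 0.312% higher and 298 or 0.417% lower), and sequencing depth as a covariate gave 1. Scaling moved the split between directions: 170 were higher and 31 lower with library size alone, and 198 higher and 677 lower with trended offsets. The median over closed peaks stayed above 0 in each of these fits (0.36 to 0.67). The median over opened peaks was -0.19 with trended offsets, with 33.9% of them above 0, 13 called higher and 584 called lower. With library size alone it was 0.12, with 59.5% above 0. The level at opened peaks relative to Tconv therefore depends on the scaling. Of the 98 calls, 33 higher calls and no lower call lay in closed peaks, and 11 higher and 43 lower calls lay in opened peaks. Leaving out Tconv replicate 2, Treg-exposed replicate 1 or Treg-exposed replicate 3 left 1 call, and leaving out Tconv replicate 1 left 15, whereas leaving out Tconv replicate 3 gave 865 and Treg-exposed replicate 2 gave 640.

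The 3 peaks with the smallest p in each direction of the direct comparison show the levels involved. An intronic peak of Mmp15, a membrane-bound metalloproteinase, at its start site stood at 26.9, 26.4 and 28.8 CPM in naive cells, 2.09, 1.78 and 1.75 in Tconv and 5.34, 4.33 and 6.84 in Treg-exposed Tconv (log2 fold change against Tconv 1.48 ± 0.23 (SE), adjusted p = 0.0261). The Treg-exposed libraries there were above all Tconv libraries and below all naive libraries. Lpar3, a receptor for lysophosphatidic acid, went past Tconv, with 0.556, 0.576 and 0.353 CPM in naive cells, 3.01, 2.92 and 2.90 in Tconv and 9.22, 5.46 and 7.95 in Treg-exposed Tconv. Its difference from Tconv was 1.36 ± 0.21 (adjusted p = 0.0261). An Erich3 intron peak was also highest under Treg, at 1.81, 1.62 and 1.94 CPM against 0.490, 0.496 and 0.409 in Tconv (1.91 ± 0.23, adjusted p = 0.00117). On the lower side, a Tor1aip2 intron peak was at 0.482, 0.586 and 0.839 CPM under Treg, 3.83, 3.98 and 1.87 in Tconv and 0.313, 0.294 and 0.210 in naive cells, so that its gain over naive cells did not pass the test (log2 1.13, adjusted p = 0.0955). An Ergic1 peak at the start site of this gene of the early secretory pathway lay below both other groups, with 3.32, 4.38 and 4.86 CPM against 12.7, 14.5 and 8.76 in Tconv and 8.69, 8.31 and 7.14 in naive cells. A peak in Nid2, which encodes the basement membrane protein nidogen, was at 1.18, 1.5 and 1.59 CPM under Treg and 3.39 to 4.14 CPM in Tconv. The Mmp15, Lpar3, Tor1aip2, Ergic1 and Nid2 differences were no longer called with depth as a covariate, nor without Treg-exposed replicate 1, Treg-exposed replicate 3 or Tconv replicate 2. The fit of these groups alone with no block kept none of the 6, Erich3 included, and both fits with the block called all 6.

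Genes of the naive state lost accessibility as a group. Of 144 peaks nearest to 16 naive-state genes, 91 were called lower and 4 higher in Treg-exposed Tconv, with a median log2 fold change of -1.30 against 0.02 over all peaks. The share lower (63.2%) compares with 18.4% of all peaks. Tconv without Treg had 101 lower and 4 higher, with a median of -1.79, and the median of Treg-exposed Tconv against Tconv was 0.42 with no peak called, against 14 higher with the replicate block in these groups alone and 1 higher with it in all groups. Satb1, a chromatin organiser of developing and resting T cells, had all 10 of its peaks called lower. Foxp1, a quiescence factor, had 36 of 47 lower and 1 higher, and Bach2, a repressor of effector genes, had 20 of 26 lower. Foxo1, which drives naive homing genes, had both of its peaks lower, and Actn1 had 3 of 3 lower. Tcf7, which encodes TCF1, had none of its 4 peaks called, against 3 called lower without Treg. In Treg-exposed Tconv against Tconv its median was 0.71, and none of its peaks was called, nor with the replicate block in either fit.

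The strongest naive-state peaks stood well apart from naive cells and, at several genes, above Tconv. The Bach2 intron peak (chr4:32362791-32366430) was at 87.1, 86.7 and 88.2 CPM in naive, 13.5, 12.7 and 8.86 in Tconv and 14.7, 12.9 and 15.1 in Treg-exposed libraries, a fold change against naive cells of -2.63 ± 0.13 on the log2 scale (adjusted p = 3.28e-11). The Lef1 intron peak (chr3:130983791-130985500), which holds the TCF/LEF match printed above, was at 31.7, 31.3 and 31.4 CPM in naive, 1.97, 2.12 and 1.56 in Tconv and 3.32, 4.17 and 5.65 in Treg-exposed libraries (-2.94 ± 0.18, adjusted p = 3.1e-10). Treg-exposed libraries overlapped Tconv at Bach2 and did not overlap them at Lef1, where the direct difference missed the threshold (1.11 ± 0.30, adjusted p = 0.0981) and passed it with the replicate block in these groups alone (1.13 ± 0.26, adjusted p = 0.0203) but not with it in all groups (adjusted p = 0.0673). A peak nearest to Ccr7, the lymph node homing receptor, among coding genes was at 10.9 to 11.1 CPM in naive, 0.581 to 0.623 in Tconv and 1.21, 1.05 and 1.68 in Treg-exposed libraries (-3.13 ± 0.18, adjusted p = 1.4e-10). The Satb1 peak was at 16 to 17.6 CPM in naive cells and 1.89 to 2.79 CPM in Treg-exposed Tconv (-2.92 ± 0.20). The best peaks of Klf2, Id3 and Il7r, with log2 fold changes of -0.59, -0.62 and -0.51, and of Tcf7 (-0.66) did not reach a change of 1.

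Transcription factor genes of activation and effector cells gained. Of 104 peaks nearest to activation factors, 47 were higher (45.2%, against 26.2% of all peaks) and 6 lower (5.77%, against 18.4%), with a median of 0.68. Batf, an AP-1 partner of IRF4, had 7 of 8 peaks higher, and Nr4a2, an early response factor, 5 of 6. Nfkb1 had 16 of 34 higher, whereas the single peaks assigned to Fos, Fosb and Junb were not called. Of 149 peaks nearest to effector factors, 82 were higher (55.0%) and 18 lower (12.1%), with a median of 1.48. Without Treg, 67 were higher and 29 lower, with a median of 0.83, while the median of Treg-exposed Tconv against Tconv was 0.08. Against naive cells, both peaks of Tbx21, which encodes T-bet, both of Bhlhe40, all 9 of Runx2 and 13 of 18 of Zeb2 were higher in Treg-exposed Tconv. Of the genes of this list, the largest median difference between Treg-exposed Tconv and Tconv was at Tox, a factor of chronically stimulated T cells: 17 of its 44 peaks were higher and 9 lower with Treg, against 5 higher and 20 lower without, and its median in Treg-exposed Tconv against Tconv was 1.16 with 1 peak called, which became 24 higher with the replicate block in these groups alone, where 4.37% of all peaks were higher, and 4 higher with it in all groups. Over the whole list these fits called 27 higher and 1 lower, and 4 higher and none lower. Tox was singled out after its values were seen.

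Levels at the factor genes were as follows. The Tbx21 peak was at 12.3, 12.9 and 12 CPM in naive, 90.3, 138 and 152 in Tconv and 103, 121 and 70.2 in Treg-exposed libraries (3.01 ± 0.21, adjusted p = 8.71e-10). The Batf intron peak rose from 0.331 to 0.574 CPM in naive libraries to 5.30 to 7.54 in Treg-exposed libraries (3.85 ± 0.30). Bhlhe40, a factor needed for cytokine production, was at 69.2, 65.9 and 64.8 CPM in naive, 451, 576 and 578 in Tconv and 444, 520 and 379 in Treg-exposed libraries (2.75 ± 0.11, adjusted p = 4.83e-12). Treg-exposed and Tconv libraries overlapped at all 3 genes, and naive libraries lay apart. The best peaks of Irf4 (2.89 ± 0.19), Prdm1, which encodes Blimp-1 (2.35 ± 0.23), Nr4a2 (2.05 ± 0.33) and Egr2 (3.81 ± 0.22) were also called higher, while the Maf peak at its start site did not reach a change of 1 (0.73 ± 0.06). Their other peaks did not all follow: Irf4 had 4 of 8 higher and 2 lower, Prdm1 2 of 7 higher, and Egr2 4 of 12 higher and 3 lower. The Id2 peak printed above had 2, 3 and 2 reads in the naive libraries and stood at 1.48, 1.90 and 1.02 CPM under Treg and 1.65, 1.90 and 1.54 in Tconv.

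The Th1 and cytotoxic genes opened under Treg exposure. Of 77 peaks of the Th1 list, 42 were higher (54.5%, against 26.2% of all peaks) and 2 lower, with a median of 1.13, and Tconv without Treg had 48 higher, 2 lower and a median of 1.62. Of 32 peaks of the cytotoxic and NK-type list, 23 were higher (71.9%) and 2 lower, with a median of 4.09, against 24 higher, 1 lower and 4.37 without Treg. No peak of either list was called between Treg-exposed Tconv and Tconv, where the medians were -0.21 and -0.23, and the replicate block, in these groups alone or in all groups, called 1 Th1 peak lower and no cytotoxic one. All peaks of Cxcr3 (4), Ccl3 (2), Ccl4 (3), Ccl5 (2), Il2 (3), Gzma (3), Gzmb (3), Gzmk (4), Nkg7 (2) and Klrg1 (4) were higher, and 9 of 10 at Il18rap. The 2 lower peaks of the cytotoxic list were both at Prf1, which encodes perforin.

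Among cytokine and chemokine genes, the Ifng peak with the printed T-box match (chr10:118270901-118272050) was at 0.570, 0.196 and 0.408 CPM in naive, 24.6, 23.6 and 29.3 in Tconv and 23.5, 27.5 and 10.8 in Treg-exposed libraries (5.83 ± 0.39, 56.7-fold, adjusted p = 6.31e-10). Treg-exposed replicate 3 was the lowest of these Treg-exposed libraries there and still far above the naive ones. The Ccl5 peak, at the start of a chemokine gene of effector T cells, was at 0.484, 0.343 and 0.530 CPM in naive and 22.5, 24.6 and 19.3 in Treg-exposed libraries (5.62 ± 0.29, 49.3-fold). An Il2 peak was at 0.470, 0.625 and 0.530 CPM in naive and 11.5, 13.6 and 9.23 in Treg-exposed libraries (4.43 ± 0.33). Ifng, Ccl5 and Il2 did not separate Treg-exposed Tconv from Tconv. A peak near Cxcr3, the chemokine receptor of Th1 cells, was at 1.99, 1.64 and 1.28 CPM in naive, 58.2, 67.8 and 60.2 in Tconv and 56.0, 58.5 and 39.9 in Treg-exposed libraries (5.03 ± 0.20, 32.6-fold, adjusted p = 4.76e-12). At Nkg7, a granule protein gene, levels were 3.03, 2.52 and 2.05 CPM in naive and 74.9, 87.8 and 48.9 in Treg-exposed libraries (4.85 ± 0.31). The Gzmb peak of smallest p had 3, 3 and 1 reads in the naive libraries and 2.80, 2.04 and 1.24 CPM in Treg-exposed libraries. Il12rb2, the inducible IL-12 receptor chain, rose by 3.02 ± 0.33 on the log2 scale. Il18r1 (1.03 ± 0.21) passed the threshold narrowly and missed it in several other fits.

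**Figure D2:**
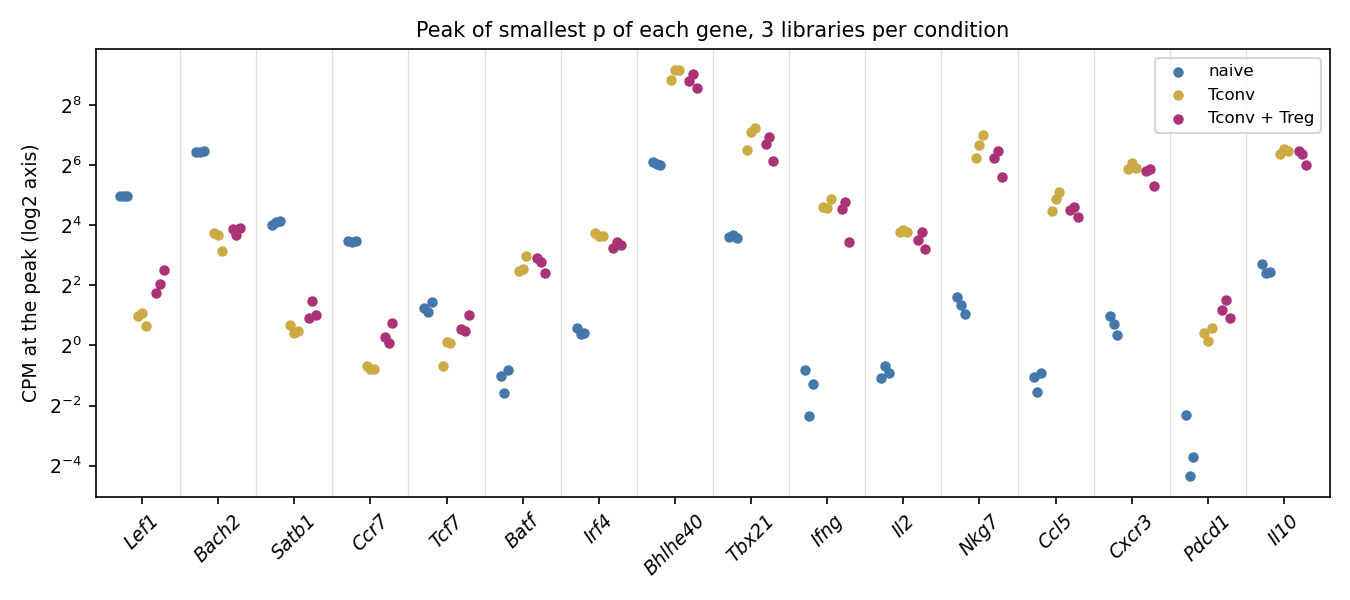
CPM on a log axis at the best peak of 16 genes in each HP1γ wild-type library; points are the 3 libraries of naive cells, Tconv and Treg-exposed Tconv, and the 3 groups are drawn in their own colours. At Ifng naive libraries lie at 0.196 to 0.570 CPM and Treg-exposed libraries at 10.8 to 27.5 CPM, and at Lef1 Treg-exposed libraries (3.32 to 5.65 CPM) lie above Tconv and far below naive cells.

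Loci of other helper lineages opened as well. Of 78 peaks of this list, 56 were higher (71.8%, against 26.2% of all peaks) and 1 lower (1.28%, against 18.4%), with a median of 2.89 against 2.46 without Treg. All 4 peaks of Il17a, all 4 of Il17f and all 5 of Il23r were higher, genes of Th17 cytokines and of the receptor for IL-23, which sustains Th17 cells, as were 4 of 4 at Il13, 3 of 4 at Il4 and 10 of 11 at Il1rl1, genes of the Th2 type. The Il17a peak printed above had 3, 0 and 2 reads in naive libraries and stood at 3.78, 2.93 and 2.74 CPM under Treg and 3.47, 2.46 and 2.47 in Tconv. The peak near Il21, a helper cytokine, was at 0.912, 1.02 and 0.751 CPM in naive and 41.0, 40.5 and 20 in Treg-exposed libraries (5.32 ± 0.33). Between Treg-exposed Tconv and Tconv, the median over the list was -0.13, so the larger median against naive cells was not matched there. In this contrast 1 Il4 peak was called lower, and the medians were -1.02 at Il4 and -1.02 at Il13 and 0.98 at Il23r, genes singled out after their values were seen. The replicate block called 6 peaks of the list higher and 10 lower in these groups alone and 1 higher and 8 lower in all groups. In both fits 2 peaks each at Il4 and Il13 were lower, while 1 at Il23r was higher in the first and none in the second. Not every lineage factor opened: an intergenic peak 103798 bp from the start of Bcl6, which encodes the follicular helper factor and is the nearest coding gene, fell by 2.56 on the log2 scale. A Gata3 intron peak was called higher (2.67 ± 0.56) at low levels of 0.617 to 1.34 CPM.

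Inhibitory receptors and genes tied to anergy or suppression changed in a mixed way. The inhibitory receptor list had 26 of 56 peaks higher (46.4%, against 26.2% of all peaks) and 5 lower (8.93%, against 18.4%), with a median of 0.96 against 1.07 without Treg. It had 7 of 7 higher at Havcr2, which encodes TIM-3, and 4 of 4 at Pdcd1, which encodes PD-1. The Pdcd1 peak of smallest p was at 0.199, 0.0490 and 0.0773 CPM in naive, 1.34, 1.11 and 1.48 in Tconv and 2.26, 2.86 and 1.90 in Treg-exposed libraries (4.51 ± 0.49, adjusted p = 1.07e-07). Treg-exposed libraries were all above Tconv there, but the direct difference did not pass (0.88 ± 0.30, adjusted p = 0.144). Tigit (2.67), Lag3 (1.92) and Ctla4 (1.53, not called after thinning) were called higher on the log2 scale, and Cd101 fell by 2.22. The list on anergy and the response to suppression had 46 of 158 peaks higher (29.1%) and 27 lower (17.1%), close to all peaks, with a median of -0.05. Within it all 15 peaks of Il10 were higher, and Cblb, an E3 ligase of anergy, had 6 of 20 lower and none higher. The best Nt5e peak, at the gene of the CD73 ectoenzyme, fell by 1.85, and that of Izumo1r, which encodes folate receptor 4, rose by 1.97. Of 8 Nt5e peaks, 2 were lower, 1 was higher and 5 were not called, and of 8 Izumo1r peaks, 2 were higher and 6 were not called.

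Genes of Treg identity showed no uniform move in these Thy1.1- cells. Of 57 peaks 22 were higher (38.6%, against 26.2% of all peaks) and 7 lower (12.3%, against 18.4%), with a median of 0.32. By nearest coding gene, 46 of 100 peaks were higher and 11 lower, with a median of 1.07. The only peak assigned to Foxp3, the master factor of Treg, was at 5.54, 4.97 and 5.43 CPM in naive, 1.96, 2.27 and 2.43 in Tconv and 2.56, 2.23 and 2.30 in Treg-exposed libraries (-1.15 ± 0.16, adjusted p = 3.56e-06), and the difference from Tconv was 0.12 ± 0.19 on the log2 scale (adjusted p = 0.746). The Foxp3 call was lost after thinning (-0.90). Il2rb, a chain of the IL-2 receptor that effector cells also use, was higher at 5 of 5 peaks, and Gpr83 lower at 4 of 6. Homing and adhesion genes had 34 of 59 peaks higher (57.6%) and 4 lower (median 1.05), among them Itga1 at 2 of 2 and Gcnt1, an enzyme for selectin ligands, at 7 of 7, while Ccr9, a gut homing receptor, had 3 of 4 lower. The Itga1 peak, at the gene of a collagen-binding integrin, was at 0.271, 0.147 and 0.132 CPM in naive and 9.97, 13.6 and 8.96 in Treg-exposed libraries (5.94 ± 0.36). The 1 peak of Cd44, which the naive sort used, was lower. Of 100 peaks of T cell identity genes, 22 were higher (22.0%) and 7 lower (7.0%), both shares below those of all peaks, with a median of 0.18. This depends on the assignment of peaks: by nearest coding gene 36 of 266 were higher (13.5%) and 57 lower (21.4%, above the share of all peaks), with a median of -0.12. None of 5 Cd4 peaks was called. In the cell cycle list 8 of 35 peaks were higher (22.9%, below the share of all peaks, but 27.4% of 73 by nearest coding gene, above it) and 2 lower (median 0.21). Of these 8 peaks, 4 were at Mki67, the gene of the proliferation marker Ki-67 (4.09 ± 0.26 at the best peak). Of the HP1 genes, neither peak of Cbx1 nor the peak of Cbx5 was called.

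**Figure D3:**
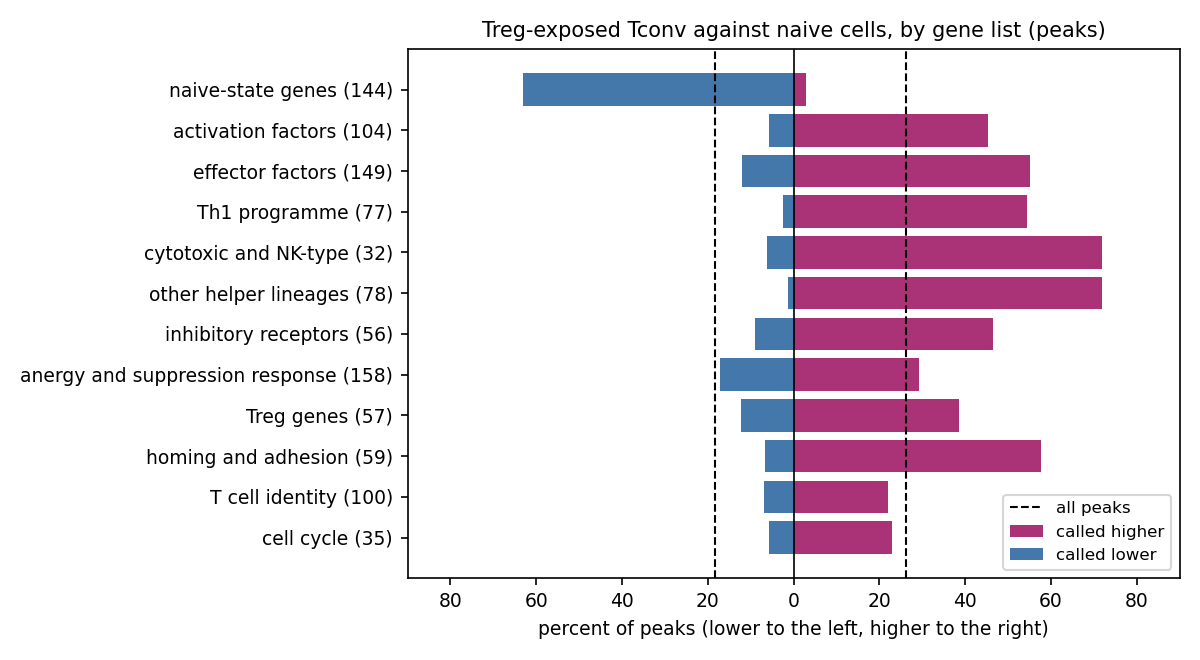
Share of the peaks of each gene list called higher or lower in Treg-exposed Tconv against naive cells, in percent, with the number of peaks in brackets. Of the lists drawn, which leave out the markers of other cells, the cytotoxic list has the highest share of higher calls (71.9%) and the naive-state list the highest share of lower calls (63.2%), against 26.2% and 18.4% of all peaks.

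Among the gains with the smallest p over the whole table were peaks near Il10 and at Gzmk. An intergenic peak 26031 bp from the Il10 start (chr1:130920491-130922610) stood at 6.60, 5.35 and 5.38 CPM in naive, 83.4, 92.7 and 89.0 in Tconv and 87.8, 83.0 and 63.6 in Treg-exposed libraries (3.79 ± 0.12, 13.8-fold, adjusted p = 6.13e-13). An intronic Gzmk peak (chr13:113318961-113320910), at the gene of a granzyme, stood at 0.413, 0.135 and 0.243 CPM in naive, 46.6, 48.1 and 50.2 in Tconv and 43.7, 37.0 and 32.4 in Treg-exposed libraries (7.22 ± 0.27, 149-fold, adjusted p = 3.25e-12). Treg-exposed libraries overlapped Tconv at Il10 and lay below them at Gzmk, where the direct difference was not called (-0.33 ± 0.13, adjusted p = 0.174 in edgeR's test). Among the same gains was a peak 129 bp from the start of the predicted gene Gm72797 (4.51 ± 0.14). Its nearest coding gene, at 15323 bp, was Hopx, a homeodomain factor of long-lived Th1 cells. A Stk32c intron peak (5.45 ± 0.19) was also among them.

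Among losses, the intronic Bcl9 peak printed above (chr3:97201281-97202630), at the gene of a beta-catenin cofactor, stood at 41.9, 40.1 and 41.9 CPM in naive, 1.60, 1.16 and 1.09 in Tconv and 3.22, 3.54 and 3.22 in Treg-exposed libraries (-3.63 ± 0.14, 12.4-fold lower, adjusted p = 3.25e-12). Its Treg-exposed libraries were above every Tconv library, and this difference was called (1.35 ± 0.26, adjusted p = 0.0437). It was lost with depth as a covariate, with GC offsets, after thinning, in the groups alone with no block, and without Treg-exposed replicate 1 or 3 or Tconv replicate 1 or 2, and kept with the block in these groups alone (adjusted p = 0.0111) and in all groups (adjusted p = 0.028). The peak at the start of Cnn3, which encodes a calponin, was at 74.9, 77.2 and 78.8 CPM in naive, 8.16, 6.94 and 7.36 in Tconv and 13.6, 11.9 and 16.5 in Treg-exposed libraries (-2.50 ± 0.10), with a direct difference of 0.86 ± 0.13 (adjusted p = 0.0265) that did not reach a log2 fold change of 1. The remaining 3 lay at the start of Cnksr3 (-3.32 ± 0.14), in a Zfp800 intron (-4.29 ± 0.18) and in a Ripor2 intron (-2.81 ± 0.12), and at each of them the Treg-exposed libraries were all above the Tconv libraries, as at 29.0% of all losses and 13.7% of all peaks. None of these 3 direct differences was called (adjusted p 0.0821, 0.145 and 0.1 in edgeR's test).

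Changes lay away from promoters more often than at them. Among 21557 peaks over a TSS, 15.2% were higher and 11.8% lower, whereas 31.4% and 22.2% of intronic and 31.0% and 20.3% of intergenic peaks were. Of peaks more than 50 kb from a coding start, 34.1% were higher and 29.7% lower. Gained peaks were narrower (median 560 bp) than lost peaks (657 bp) and peaks not called (960 bp). In naive cells the gained peaks had a median log2 CPM of -1.71 and the lost peaks of 2.22, and in Treg-exposed Tconv these medians were 0.97 and 0.45. The median GC content was 46.8% for gains, 47.0% for losses and 49.1% for the rest.

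The share of windows with a motif differed between gains and losses. Among windows away from start sites, AP-1 (TGANTCA) was present in 23.3% of gains, 9.95% of losses and 12.1% of the rest, against 15.1% of all such windows, and 45.1% of the windows with it, start sites included, were called higher. TCF/LEF (CTTTGAT) had the other order, with 5.36% of gains, 10.7% of losses and 5.80% of the rest, against 6.71% of all such windows, and 32.3% of the windows with it, start sites included, were called lower. T-box (AGGTGTGA) was in 3.91% of gains and 1.46% of losses (2.32% of all windows away from start sites), RUNX (TGTGGTT) in 18.8% and 14.8% (15.3%), NFAT (TGGAAAA) in 9.18% and 6.19% (7.45%) and NR4A (AAAGGTCA) in 3.03% and 1.65% (2.24%). KLF (GGGNGTGG), in 11.9% of gains and 11.4% of losses (11.6%), had shares close to each other. IRF (GAAANTGAA) was in 4.31% of gains and 3.29% of losses (3.77% of all windows away from start sites), NF-kB (GGGAANTTC) in 1.62% and 1.05% (1.22%) and ETS (ACCGGAAGT) in 0.162% and 0.330% (0.242%). Both strands were searched, and no pair of these letter runs was excluded for overlap. Read within 4 bins of GC content, AP-1 was more frequent in gains and TCF/LEF in losses in every bin. The matches are a description of letters, and no factor's binding was measured.

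**Figure D4:**
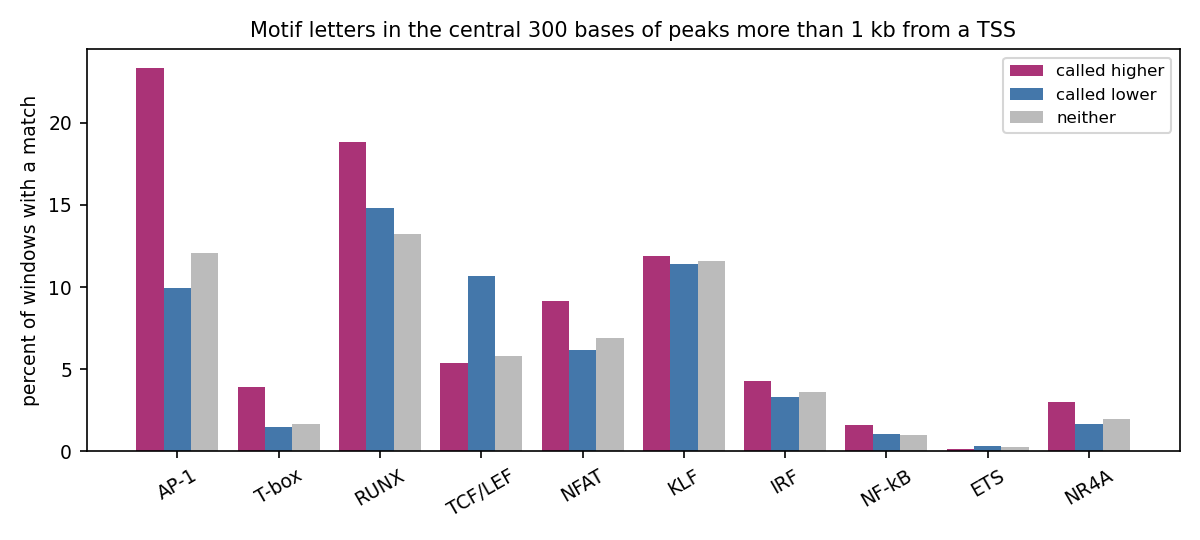
Percent of 300-base peak-centre windows away from start sites that hold each motif on either strand, among peaks called higher, called lower and neither in Treg-exposed Tconv against naive cells. AP-1 is in 23.3% of gains and 9.95% of losses and TCF/LEF in 5.36% and 10.7%.

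The T cell receptor β locus on chromosome 6 changed by position. Tconv were sorted for Vβ6, which Trbv19 encodes, so differences there are not independent of the sort. The peak over Trbv19 was higher (14.8, 14.8 and 15 CPM in naive, 39.9, 38.6 and 34.7 in Treg-exposed libraries, log2 1.36). Over all peaks, 26.2% were higher and 18.4% lower. Before Trbv19 along the chromosome, 15 of 29 peaks were higher and 1 lower (median 1.11). Between Trbv19 and Trbd1, none of 14 peaks was higher and 13 were lower (median -1.90), and their summed level was 66.8, 66.5 and 71.6 CPM in naive, 26.9, 32.4 and 34.1 in Tconv and 23.1, 16.3 and 17.5 in Treg-exposed libraries. From Trbd1 on, none of 5 peaks was called. Between Treg-exposed Tconv and Tconv, no peak of the locus was called. As background, V(D)J joining removes the DNA between the joined V and D segments, and counts cannot tell fewer copies of this DNA from lower accessibility. The part of either was not tested, and the V segments and the trypsinogen genes among them are multigene families, some with close copies, where single peaks are less certain.

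**Figure D5:**
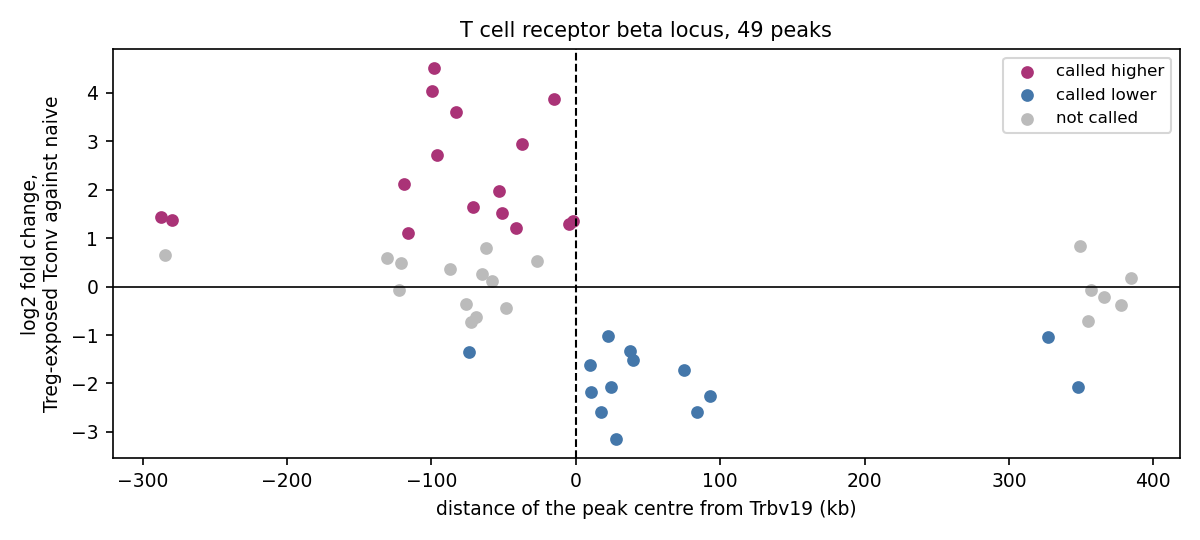
Log2 fold change of Treg-exposed Tconv against naive cells at 49 peaks of the T cell receptor β locus by distance from Trbv19 in kb, with each point a peak coloured by its call. Of the 14 peaks between Trbv19 and Trbd1, 13 are called lower, against 18.4% of all peaks. Of the 29 before Trbv19, 15 are called higher, against 26.2% of all peaks.

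The same comparison in wild-type cells of the HP1α line, with 2 Treg-exposed libraries of 12.7 and 1.49 M reads, called 22780 peaks (31.9%), 15330 higher (21.4%) and 7450 lower (10.4%). Peaks higher in both lines numbered 13207, which is 70.5% of the HP1γ gains and 86.2% of the HP1α gains, and 2 HP1γ gains were called lower in HP1α. Peaks lower in both numbered 4889, which is 37.1% of the HP1γ losses and 65.6% of the HP1α losses, and 14 HP1γ losses were called higher in HP1α. Of the HP1γ calls, 97.6% of gains and 92.9% of losses had the same sign in HP1α. Across the 71508 peaks the log2 fold changes had a Pearson correlation of 0.87, a description over peaks that share libraries and depth. Among the named genes, Il10 (3.87), Gzmk (7.14), Ifng (6.53), Lef1 (-2.35) and Bach2 (-3.01) were called in HP1α with the same sign, whereas Bcl6 (-0.42), Prdm1 (1.04), Id2 (2.57), Gata3 (1.47), Ctla4 (1.62), Nt5e (-1.28) and Izumo1r (0.83) were not called there, nor was Il18r1, whose sign was opposite (-0.54). Placed on an axis drawn from the HP1γ Tconv, the HP1α Treg-exposed libraries stood at 82.7% and 107% of the distance at closed peaks and the HP1α Tconv libraries at 146%, 78.0% and 76.4%, so the gap between the conditions at closed peaks seen in HP1γ was within the spread of the HP1α libraries. Without HP1α Treg-exposed replicate 1, 945 peaks were called.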

How the data were processed

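The authors deposited 36 libraries as raw read counts per consensus peak, not normalized, and a list of peak positions whose score column the authors left at a placeholder. Per the study's methods and the submitters' processing notes, reads were trimmed with Trim Galore 0.6.7, aligned with BWA to GRCm39 (mm39), filtered for duplicates and low mapping quality, and counted with featureCounts 2.0.3 over peaks that HMMRATAC called in each sample and that were then merged, so neighbouring peaks can share reads. Of 71512 intervals, 3 had no width and were dropped. No per-sample column was left unused (0 columns).

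All 18 HP1γ libraries were fitted in 1 model with edgeR 4.0.16 in R 4.3.3 (filterByExpr, TMM scaling, the newer quasi-likelihood F test, Benjamini-Hochberg adjustment over all peaks), and the 15 HP1α libraries that the study kept in another. CPM are per 1000000 reads in peaks after TMM scaling, and log2 CPM add a prior count of 2. No fold is given where 1 group has at most 3 reads in every library. On simulated counts for Treg-exposed against naive cells, 200 of 71509 peaks were changed, each by 2 on the log2 scale. The fit recovered 166 of these 200 peaks (83%) and called 7 unchanged ones. In the measured libraries 31908 peaks (44.6%) were called, and the fit was not tested with so large a share of changed peaks. Each peak was given to the GRCm39 gene whose TSS lay closest. Where a named gene got no peak that way (Lef1, Ccr7, Id2, Egr2, Bcl6, Il21, Flt3), the nearest coding gene was used, a choice made after the data were seen. Named genes were the 5 called autosomal peaks of smallest adjusted p in each direction, the best peak of each core gene and of each list, and the 3 peaks of smallest p in each direction of Treg-exposed Tconv against Tconv. The contrasts, gene lists and named genes were chosen with earlier results of these data known. Alternatives were library size scaling, trended and GC offsets (limma 3.58.1 loess), DESeq2 1.42.0, limma voom, other filters, fits of the compared groups alone, replicate blocks, depth as a covariate, thinning and leaving out each library. Treg-exposed Tconv and Tconv libraries of the same replicate number had correlated deviations from their group means (0.29, 0.20 and 0.23). Treg-exposed Tconv and naive libraries of the same number did not (-0.06, 0.02 and -0.03). No source states that these numbers pair libraries. Depth fell with the replicate number in both Tconv groups, and its part in these correlations was not tested. The labels give no batch beyond separate sample numberings for naive and transferred cells, so batch and group cannot be told apart there. Some genes that the rule names are not reported here.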

Additional observations from a re-analysis of the deposited data

How the results depend on the processing

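Treg-exposed Tconv against naive cells gave 28808 to 32771 calls over the other scalings, filters, tools and fits, including 31821 with the replicate block in the 2 groups alone and 31978 with it in all groups, and 30394 to 31985 with each library left out. A log2 fold change over 2 left 16920. Of 1337 refits of the named peaks, 1323 kept their call, 13 lost it, at Il18r1, Cd3e, Ctla4 or Foxp3, 1 gained it, and no value reversed. For Treg-exposed Tconv against Tconv, 98 calls became 3641 with the replicate block in the groups alone, 3762 with the block and GC offsets, 521 with the block in all groups, 2329 with DESeq2, 1069 with limma voom, 875 with trended offsets, 686 with the older quasi-likelihood fit, 243 with GC offsets, 201 with library size alone, 18 after thinning, 1 with depth as a covariate and 0 in the groups alone, with a range of 1 to 865 when leaving out each library. The cause of these shifts was not tested. The HP1α comparison ranged from 945 to 22761 calls when leaving out each library, with a lone Treg-exposed library assumed to vary like the other groups. The share of the distance at opened peaks moved from 103% to 109% with library size alone and to 92.5% with the 1000 peaks of smallest p, and that at closed peaks from 73.6% to 68.2% and 81.5%. The thinning, the older fit and the block in all groups were chosen after seeing the data. Counting error is largest in the smallest Treg-exposed library, which had 19.4 M reads.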

Other observations

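Of 1522 X-linked peaks, 16.8% were called higher and 22.8% lower in Treg-exposed Tconv against naive cells, against 26.2% and 18.4% of all peaks. Over single autosomes, 22.2% to 29.3% of peaks were called higher and 13.9% to 22.7% lower, so the X chromosome stood below all autosomes in gains and just above the highest in losses. X-linked peaks took 1.55% to 1.65% of reads in the Treg-exposed libraries and 1.81% to 1.84% in the naive libraries. With peaks assigned to the nearest coding gene wherever no peak had been assigned to a gene, the naive-state list had 129 of 202 peaks lower and 5 higher (median log2 fold change -1.35), and the effector factor list 128 of 219 higher and 23 lower (median 1.83). Of 54 shares of the gene lists taken again with other assignments of peaks, 10 changed by more than 1.5-fold.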
